A study of Mus musculus with 20 samples.

Results

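The genes described here encode the proteins of the cytosolic ribosome. They were chosen by symbol in the array annotation: Rpl or Rps followed by a digit, Rplp0 to Rplp2 and Rpsa, leaving out the Rps6k kinases and symbols that end in -ps. Probe sets listed with a single gene gave 48 such genes among 12393, of which 26 belong to the large (60S) and 22 to the small (40S) subunit. Another 30 ribosomal protein genes, among them Rpl3, Rpl5, Rpl10, Rplp1, Rps12 and Rps16, were listed only in probe sets shared by several genes and were not analysed here. Rps27a had no usable probe set either.

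The cells were MIN6, a mouse pancreatic beta cell line, grown at 22.7 or 5.5 mM glucose and either left untreated or exposed to human amylin, the islet hormone that forms amyloid, at 1, 10 or 20 µM for 2, 12 or 24 h. Total RNA of each of the 20 combinations was hybridised to a single Affymetrix mouse array, so there were 10 arrays at each glucose level, 2 untreated and 18 treated, and no condition was repeated. All groups are the same unmodified line, and the labels give no time for the untreated cells. The labels do not say whether arrays come from separate cultures, so each p-value measures only the spread between these arrays.

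A ribosome is built from ribosomal RNA and a single copy of most of these proteins, and a growing cell spends a large share of its transcription on them. In mammals their mRNAs typically begin with a cytosine and a run of pyrimidines, the 5′ terminal oligopyrimidine (TOP) tract, through which mTORC1 signalling sets how much of the mRNA is translated. Beta cells make large amounts of proinsulin, and glucose is known to control their protein synthesis to a large degree at translation, a step that arrays of total RNA do not measure.

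RefSeq start sites (GRCm38.p6) were available for 42 of the 48 genes. In the 30 bases from 10 before to 20 from the start on, a C followed by at least 4 C or T was found on the gene's strand for 27 of 42 genes (64.3%), against 35.8% of 27025 genes with such a window. On the opposite strand the same run was found for 26.2% of the ribosomal protein genes and 40.2% of all genes. The windows below belong to genes whose values carry the results, written 5′ to 3′ on the gene's strand with the first such run in capitals. A run in this window is a match of letters and not a mapped transcript start.
Rpl35 (chr2:39005112-39005141, minus strand): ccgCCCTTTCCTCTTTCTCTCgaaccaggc
Rps24 (chr14:24490668-24490697, plus strand): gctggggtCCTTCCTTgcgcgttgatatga
Rps6 (chr4:86857348-86857377, minus strand): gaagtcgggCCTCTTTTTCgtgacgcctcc
Rps9 (chr7:3704031-3704060, plus strand): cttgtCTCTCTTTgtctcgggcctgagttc
Rpl22l1 (chr3:28805498-28805527, plus strand): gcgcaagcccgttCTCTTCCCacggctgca
Rps19 (chr7:24884582-24884611, plus strand): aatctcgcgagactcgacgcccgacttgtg
Rps4x (chrX:102189372-102189401, minus strand): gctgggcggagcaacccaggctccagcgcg
Rps25 (chr9:44407704-44407733, plus strand): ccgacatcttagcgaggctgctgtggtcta

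The longest of these runs was that of Rpl35, with 18 letters, and Rps6 had 10. Rps24, Rps9 and Rpl22l1 had 8 each. The windows of Rps19, Rps4x and Rps25 held no such run.

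The brightest probe set of a gene, by mean log2 level over the arrays, stood for it. The level is the array's summarised brightness and cannot be compared between genes as an amount of mRNA. Genes with a mean level under 7.08, the lowest 40%, were left out, and 43 ribosomal protein genes (22 large, 21 small) were tested among 7436 genes. Rpl14, Rpl27a and the paralogs Rpl39l, Rpl3l and Rps4l fell below that level.
Beta cell markers were bright on every array: Ins2 lay between 14.50 and 14.78, Iapp between 13.44 and 13.94 and Pdx1 between 10.66 and 11.35. Of 10 fibroblast markers 3 passed the level filter (Col1a2, Sparc and Fn1, with medians from 7.63 to 7.79), and Col3a1 was the dimmest with a median of 4.13. No acinar marker (0 of 2) and no immune or endothelial marker (0 of 4) passed it. The arrays at 22.7 mM with 1 µM amylin for 12 h and at 5.5 mM with 10 µM for 24 h, which have no scanner description here, correlated less with the other arrays (mean r 0.972 and 0.962) than the remaining 18 did (at least 0.986). Results are therefore given with and without these 2 arrays.

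Ribosomal protein genes were among the brightest on the array. Of the 43, 28 (65.1%) had a mean level above 12, and they made up 28 of the 128 tested genes above that level (21.9%). On each array 25 to 28 of the 43 lay above the array's own 99th percentile, which ranged from 11.70 to 12.12. The brightest was Rpl41, a very short basic protein of the large subunit, with a mean of 13.74. On each array the brightest ribosomal protein gene stayed 0.65 to 1.41 below the array's maximum, which was 14.50 to 14.78. RMA values do not hold the scanner's own saturation calls, so this gap cannot show whether bright probe sets were saturated.

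Most of the levels varied little. The SD over all 20 arrays had a median of 0.139 over the 43 genes and 0.194 over all 7436 genes. At equal brightness the difference was smaller: between levels 12 and 13 the median SD was 0.121 for 23 ribosomal protein genes and 0.166 for 88 other genes, and between 13 and 15 it was 0.121 for 5 and 0.136 for 12. Between 9 and 11 it was 0.153 for 3 and 0.198 for 2225. In the other ranges the order turned, with 0.217 for 6 ribosomal protein genes and 0.188 for 283 others between 11 and 12, and 0.208 for 6 and 0.194 for 4785 between 7 and 9. These are descriptions of levels that include every condition.

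**Figure D1:**
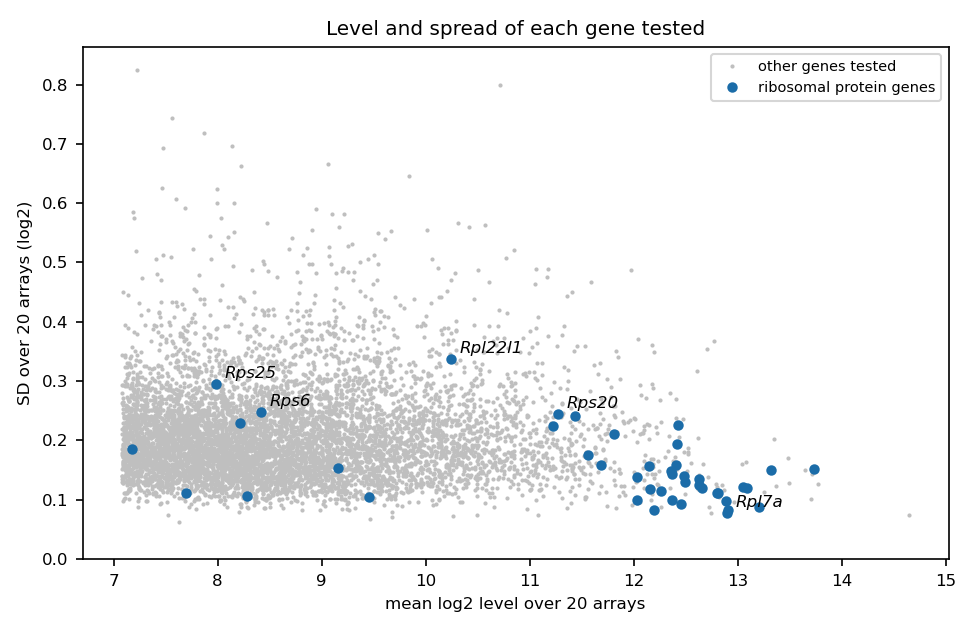
Each point is a gene tested, with its mean log2 level over 20 arrays on the horizontal axis and its SD over the same arrays (log2) on the vertical axis. Ribosomal protein genes are blue and other genes grey: 28 of 43 lie above level 12, and Rpl22l1, Rps25 and Rps6 have the widest spread among them.

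Rpl7a, a large subunit protein, was the steadiest. It had a mean level of 12.89 with an SD of 0.077, and its values ran from 12.71 to 13.05. Rpl6 and Rpl38 of the large subunit followed with SDs of 0.083 each, then Rps29 with 0.087 and Rps10 with 0.093 of the small subunit.
Rpl22l1, the paralog of the RNA-binding protein Rpl22, was the most variable with an SD of 0.337, and Rpl22 itself had 0.105. Rps25, which is needed for translation from some internal ribosome entry sites, had 0.295. Rps6, the protein phosphorylated by S6 kinases downstream of mTORC1, had 0.248, Rps20 had 0.244 and Rps9 had 0.242.
Rps25 and Rps6 were dim on this array (means 7.99 and 8.42), while Rps20 and Rps9 were bright (11.27 and 11.43). Without the 2 arrays that stand apart the SDs were 0.283 for Rpl22l1, 0.246 for Rps25, 0.244 for Rps6, 0.175 for Rps20 and 0.181 for Rps9.

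**Figure D2:**
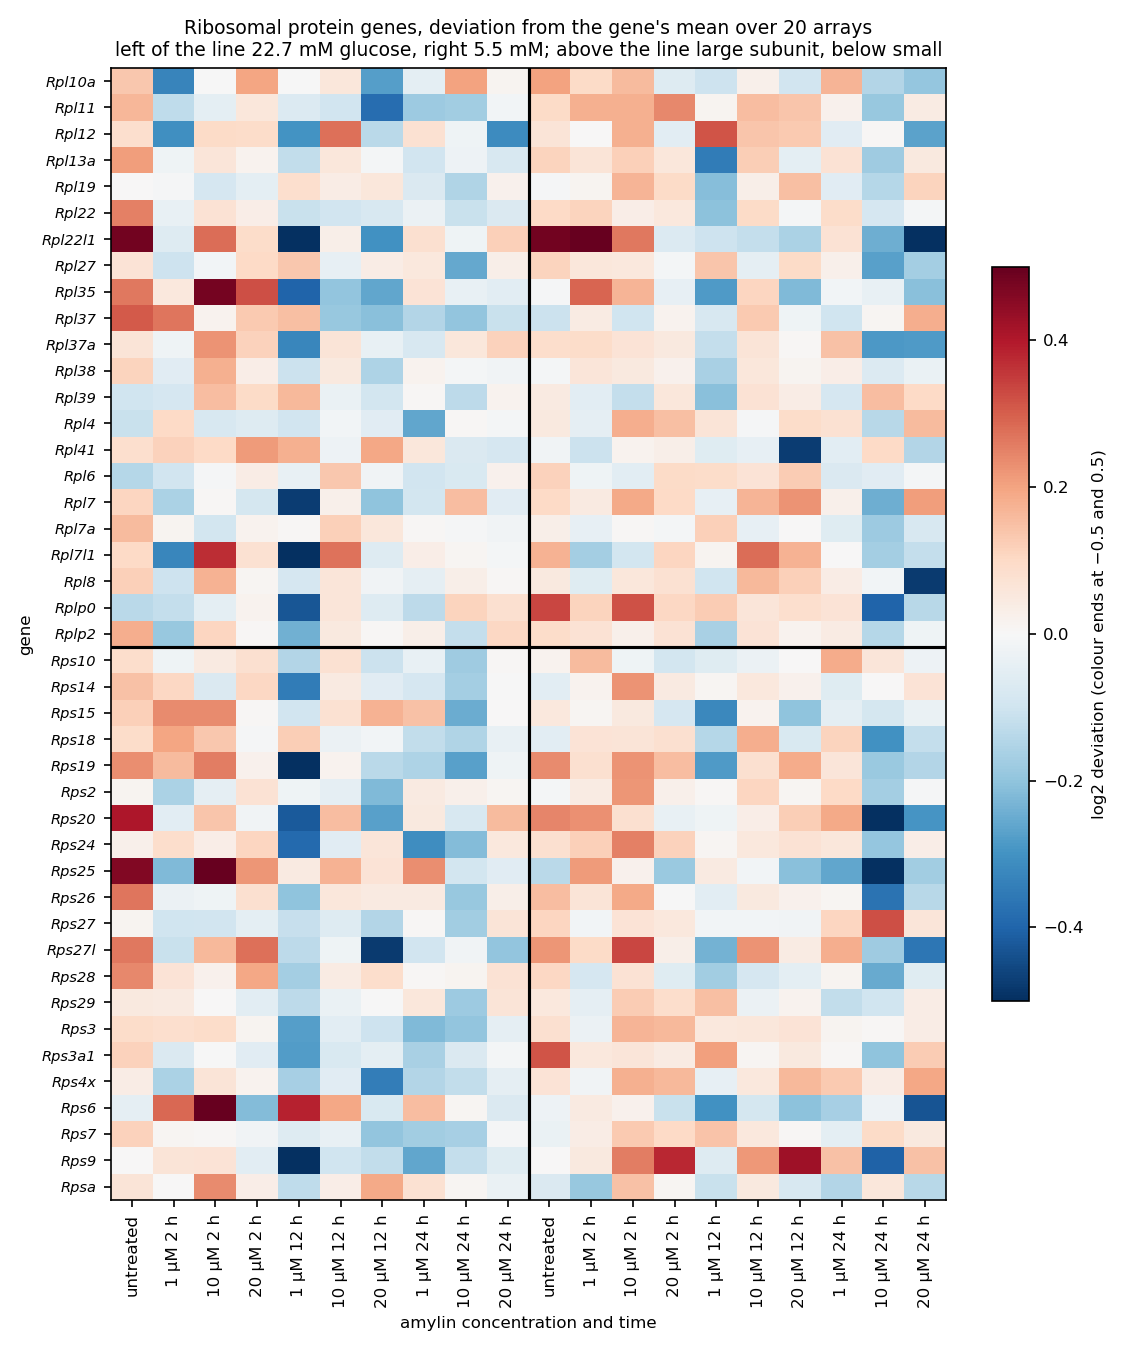
Colour gives each gene's log2 deviation from its own mean over 20 arrays; rows are the 43 genes tested and columns the 20 arrays, ordered by glucose, time and amylin concentration. Most cells are pale; the columns for 1 µM for 12 h at 22.7 mM and 10 µM for 24 h at 5.5 mM are the darkest blue.

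The first comparison asks whether glucose at 22.7 against 5.5 mM altered the levels, over 10 matched pairs of arrays. None of the 43 genes passed limma's test at an adjusted p of 0.05, against 5.49% of all genes tested (3.63% higher and 1.86% lower at 22.7 mM); 13 had an unadjusted p under 0.05, as did 1684 of the 7436 genes. The median log2 difference was -0.031 with 27 of 43 negative, and over all genes it was 0.037. The subunits had medians of -0.012 (large, 14 of 22 negative) and -0.065 (small, 13 of 21 negative), and 10 of the 13 genes with an unadjusted p under 0.05 were of the small subunit. In RNA from whole cultures, a change in every cell and a change in the share of some cells cannot be told apart.

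Rps4x, the X-linked small subunit protein, came closest to the threshold. Its level at 22.7 mM was 12.52 untreated, then 12.32, 12.55 and 12.50 at 2 h, 12.32, 12.42 and 12.13 at 12 h, and 12.33, 12.36 and 12.44 at 24 h with 1, 10 and 20 µM amylin. At 5.5 mM the same order gave 12.55 untreated, then 12.46, 12.66 and 12.64, then 12.44, 12.53 and 12.64, then 12.61, 12.52 and 12.68. In each of the 10 pairs the array at 22.7 mM was the lower, although the 2 groups overlapped. The difference was -0.19 ± 0.054 (SE, n = 10 pairs; limma adjusted p = 0.0533).

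Rps9, a small subunit protein that binds early in assembly, had a median of 11.35 (10.85 to 11.50) at 22.7 mM and of 11.58 (11.03 to 11.86) at 5.5 mM. It was lower at 22.7 mM in 7 of 10 pairs, by -0.23 ± 0.080 (limma adjusted p = 0.0973). The lowest value of each group was on one of the arrays that stand apart. On its dimmest probe set the difference was -0.050.
Rpl11, which with Rpl5 and 5S RNA also binds the p53 regulator Mdm2, had a median of 12.33 (12.03 to 12.57) at 22.7 mM and of 12.53 (12.22 to 12.65) at 5.5 mM. It was lower in 8 of 10 pairs, by -0.17 ± 0.060 (limma adjusted p = 0.0952).

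The genes higher at 22.7 mM with the smallest p were in the small subunit. Rps6 had a median of 8.50 (8.20 to 9.08) at 22.7 mM and of 8.32 (7.99 to 8.46) at 5.5 mM, and it was higher in 8 of 10 pairs, by 0.26 ± 0.081 (limma adjusted p = 0.0706). Rps25 had a median of 8.11 (7.77 to 8.62) against 7.83 (7.21 to 8.20), higher in 8 of 10 pairs, by 0.29 ± 0.096 (limma adjusted p = 0.0813). Rps28, one of the smallest proteins of the 40S subunit, differed by 0.11 ± 0.047 (limma adjusted p = 0.164), and by 0.029 on its dimmest probe set. The groups overlapped for each of these genes.
Among the others, the stalk protein Rplp0 differed by -0.13 (2 of 10 pairs higher) and Rpsa, also known as the laminin receptor, by 0.095 (7 of 10 pairs higher), with limma adjusted p of 0.395 and 0.295.

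Leaving out the 2 arrays that stand apart changed the glucose calls. An array left without its matched array adds nothing to the glucose difference. The fit on 18 arrays therefore had 7 residual degrees of freedom, against 9 on all arrays. On 18 arrays 4 of 43 genes were called, all lower at 22.7 mM, against 9.99% of all genes (6.04% higher and 3.95% lower). They were Rps9 (-0.26 ± 0.069, limma adjusted p = 0.0263), Rpl11 (-0.21 ± 0.060, 0.0376), Rps4x (-0.20 ± 0.056, 0.0376) and Rpl7, an RNA-binding protein of the large subunit (-0.19 ± 0.057, 0.0460). With 4 of 43, the share called is close to that of all genes.
With scan day as a block on 17 arrays 7 were called, against 14.7% of all genes, again a similar share. Rps9, Rps4x, Rpl11, Rpl7 and Rpl4 were lower and Rps6 and Rps25 higher at 22.7 mM. The fit with scan day had 5 residual degrees of freedom. The signal of the 3′ minus the 5′ actin probe sets, a measure of RNA length, was higher at 22.7 mM (1.19 to 2.60) than at 5.5 mM (0.98 to 1.77). With that signal in the fit 0 of 43 and 0 of all 7436 genes were called, and the median difference was -0.012.

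**Figure D3:**
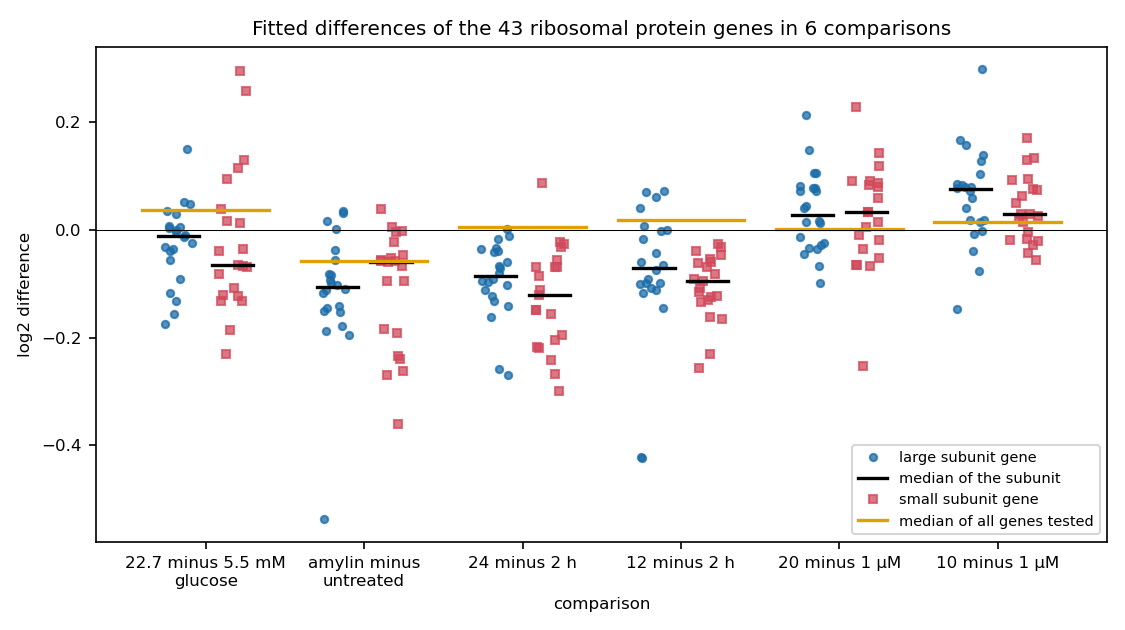
Points are the fitted log2 differences of the 43 genes in each of 6 comparisons, blue circles for the large and red squares for the small subunit. Black lines are the subunit medians and yellow lines the median of all 7436 genes; most points lie below 0 for 24 minus 2 h (41 of 43) and 12 minus 2 h (37 of 43).

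The second comparison sets the 9 amylin conditions against untreated cells, at both glucose levels. No ribosomal protein gene passed (background 0%), 6 had an unadjusted p under 0.05 as did 419 of all genes, and the untreated group is 2 arrays. The median difference was -0.095 with 37 of 43 negative, next to -0.059 over all genes and -0.060 over the 100 other genes above level 12, of which 81 were negative. It was -0.052 without the untreated array at 22.7 mM and -0.14 without that at 5.5 mM, and -0.031 after quantile normalizing the table again. The large subunit had a median of -0.11 and the small subunit of -0.060.

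Rpl22l1 had the largest difference. The untreated arrays read 10.73 at 22.7 mM and 10.72 at 5.5 mM, and the 18 treated arrays ran from 9.42 to 10.80 with a median of 10.20. A single treated array, 1 µM for 2 h at 5.5 mM, exceeded the untreated values. The difference was -0.54 ± 0.18 (limma adjusted p = 0.776).
Rps19, a small subunit protein mutated in Diamond-Blackfan anaemia in humans, read 12.04 and 12.05 untreated, and the treated arrays ran from 11.30 to 12.07 with a median of 11.83. Its difference was -0.26 ± 0.096 (limma adjusted p = 0.776). Rps26, which lies near the mRNA exit, differed by -0.23 ± 0.090 with the same adjusted p.
Rps27l, a paralog of Rps27 known as a p53 target, differed by -0.27 and Rps20 by -0.36. Both were lower at each glucose level, where the mean of 9 treated arrays was set against 1 untreated array. The positive differences of smallest p were 0.035 for Rpl4, 0.038 for Rps6 and 0.030 for Rpl39, each smaller than its SE.

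The third comparison follows time with amylin, over 6 matched pairs of arrays (3 concentrations at each glucose level). At 24 against 2 h 41 of 43 differences were negative with a median of -0.095, while over all genes 48.7% were negative with a median of 0.0047. Of the 28 ribosomal protein genes above level 12 all 28 were negative, and of the 100 other genes above that level 66 were, with a median of -0.046. No ribosomal protein gene was called (background 0.0538%); 9 had an unadjusted p under 0.05, 8 of them in the small subunit, as did 644 of all genes. The subunit medians were -0.086 for the large and -0.12 for the small subunit. The subunits were also set side by side per array, as the median deviation from the genes' own means, large minus small. At 2 h this had a mean of -0.017 and a median of 0.0044 (-0.082 to 0.029). At 24 h the mean was 0.022 and the median 0.0044 (-0.031 to 0.13), with the highest value at 22.7 mM with 10 µM.
At 12 against 2 h 37 of 43 differences were negative, among them 21 of 21 in the small and 16 of 22 in the large subunit. The median was -0.091, against 0.017 over all genes. No ribosomal protein gene was called (background 0.108%), and 5 had an unadjusted p under 0.05, as did 692 of all genes. The 2 time comparisons use the same 2 h arrays and are not independent of each other.

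Rpl35, a large subunit protein at the exit of the nascent peptide tunnel, showed the smallest p of the 43 at 12 h. At 22.7 mM its level was 12.48, 12.90 and 12.75 at 2 h, 12.02, 12.23 and 12.16 at 12 h, and 12.49, 12.39 and 12.37 at 24 h with 1, 10 and 20 µM. At 5.5 mM it was 12.71, 12.60 and 12.38 at 2 h, 12.14, 12.53 and 12.20 at 12 h, and 12.41, 12.39 and 12.22 at 24 h. Each of the 6 arrays at 12 h was below its matched array at 2 h, and the groups overlapped through 1 array at 12 h.
The difference at 12 against 2 h was -0.42 ± 0.090 (n = 6 pairs, limma adjusted p = 0.0740). At 24 against 2 h it was -0.26 ± 0.090 (lower in 5 of 6 pairs, limma adjusted p = 0.40). These SEs come from the whole fit and hold no variation of the time effect between concentrations. The untreated arrays read 12.69 at 22.7 mM and 12.42 at 5.5 mM. Rpl35 had 6 probe sets above the filter, of which only the brightest and the dimmest were set side by side, and these differed in sign. The dimmest, with a mean of 7.59 not far above the level filter, differed by 0.086 at 12 h and 0.17 at 24 h.

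Rps19 had a median of 11.97 at 2 h (11.83 to 12.07), 11.75 at 12 h (11.30 to 12.00) and 11.66 at 24 h (11.54 to 11.87). Only the highest array at 24 h reached into the range of the 2 h arrays. It differed by -0.27 ± 0.075 at 24 h (lower in 6 of 6 pairs, limma adjusted p = 0.260) and by -0.26 ± 0.075 at 12 h (5 of 6, 0.222).
Rps24, another Diamond-Blackfan anaemia gene in humans, differed by -0.22 ± 0.075 at 24 h and was lower in 6 of 6 pairs (limma adjusted p = 0.392). Rpl22l1 had a median of 10.42 at 2 h (10.17 to 10.80), 10.10 at 12 h (9.42 to 10.27) and 10.27 at 24 h (9.69 to 10.36). At 12 h it was lower in 6 of 6 pairs, by -0.42 ± 0.14 (limma adjusted p = 0.288), and by -0.087 with scan day as a block. At 24 h it was lower in 4 of 6 pairs, by -0.27.
The only positive differences at 24 h were 0.087 ± 0.080 for Rps27, a zinc finger protein of the small subunit, and 0.0017 ± 0.090 for Rpl39, a short protein lining the peptide tunnel. At 12 h the positive differences of smallest p, 0.070 for Rpl6, 0.060 for Rpl7a and 0.071 for Rpl12, had SEs of 0.065, 0.061 and 0.10.

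The median deviation of the 43 genes from their own means gives a value per array. At 22.7 mM it was 0.11 untreated, then -0.028, 0.064 and 0.032 at 2 h, -0.13, 0.031 and -0.066 at 12 h, and -0.037, -0.079 and -0.0082 at 24 h with 1, 10 and 20 µM. At 5.5 mM it was 0.070 untreated, then 0.045, 0.12 and 0.049 at 2 h, -0.060, 0.054 and 0.017 at 12 h, and 0.024, -0.14 and -0.031 at 24 h. Both later times were below the matched 2 h array in 6 of 6 pairs, and the means were 0.047, -0.025 and -0.046 at 2, 12 and 24 h. The ranges of the time groups overlapped.
The lowest values, -0.13 and -0.14, were those of the 2 arrays that stand apart, where the other genes above level 12 had -0.17 and -0.28. Without them the differences at 24 against 2 h had a median of -0.089 with 39 of 43 negative, and at 12 against 2 h of -0.066 with 35 of 43 negative. On these 18 arrays 0 of 43 were called in either, against 0.444% and 0.74% of all genes.

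**Figure D4:**
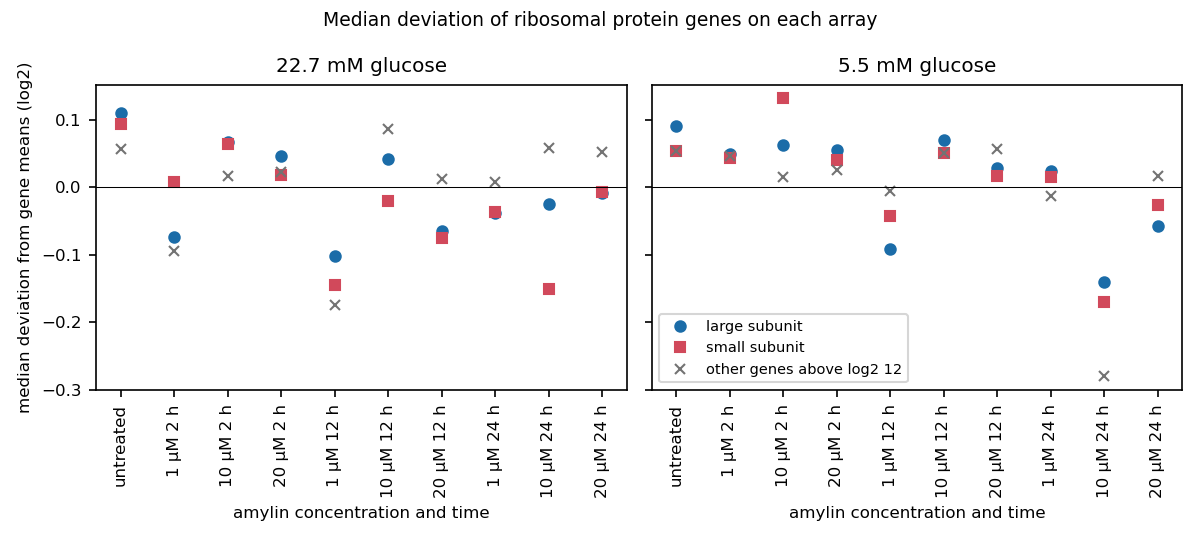
Median log2 deviation from the genes' own means on each of the 20 arrays, for large subunit genes (blue circles), small subunit genes (red squares) and 100 other genes above level 12 (grey crosses), by amylin concentration and time at each glucose level. Both untreated arrays are above 0 and all 3 series are lowest at 10 µM for 24 h at 5.5 mM, while at 22.7 mM the large subunit and the other genes are lowest at 1 µM for 12 h and the small subunit at 10 µM for 24 h.

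Neither time nor glucose was balanced over the wash protocols named in the scanner descriptions. By glucose, the median deviation under protocol A averaged 0.0445 over 4 arrays at 22.7 mM and 0.021 over 7 at 5.5 mM. Under protocol B it averaged -0.032 over 5 arrays at 22.7 mM and 0.073 over 2 at 5.5 mM, the opposite order. Both untreated arrays were under A, and the treated arrays of known protocol under A or B. Under protocol A the median deviation was 0.033 over 5 arrays at 2 h and -0.031 on 1 array at 24 h; under protocol B it was 0.12 on 1 array at 2 h and -0.025 over 4 arrays at 24 h. At 12 h it was 0.0037 over 3 arrays under A and -0.017 over 2 under B. On scan day 3 it was 0.018, 0.035 and -0.034 at 2, 12 and 24 h, over 2 arrays each, so there the 12 h arrays were not the lower. On scan day 4 it was 0.12 on 1 array at 2 h, -0.017 over 2 at 12 h and -0.021 over 3 at 24 h. These arrays differ in glucose and concentration. With wash protocol as a block the median difference was -0.091 at 24 and -0.072 at 12 against 2 h, and with scan day as a block -0.11 and -0.068. Quantile normalizing the table again gave -0.043 and -0.064.

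Genes with and without a pyrimidine run near the start are set side by side, with no test. At 24 against 2 h, 23 tested genes with the run had a median of -0.092 and 15 without it of -0.095, with 21 and 15 negative. At 12 against 2 h the medians were -0.075 and -0.099. Between glucose levels they were -0.031 and 0.0036.

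The fourth comparison concerns the amylin concentration, over 6 matched pairs for 20 against 1 µM and 6 for 10 against 1 µM, which share the 1 µM arrays. No ribosomal protein gene was called in either (background 0% in both), with 2 and 3 genes at an unadjusted p under 0.05 against 176 and 208 of all genes. The medians were 0.033 (27 of 43 positive) and 0.049 (31 of 43 positive), next to 0.00092 and 0.014 over all genes and 0.074 and 0.036 over the 100 other genes above level 12.
Rps9 had the smallest p among positive differences at 20 µM, with 0.23 ± 0.10, followed by Rps24 with 0.14 ± 0.075 and Rpl7l1, a paralog of Rpl7, with 0.21 ± 0.11. Rps6 was lower, by -0.25 ± 0.10 in 5 of 6 pairs, and Rps18 and Rpl41 differed by -0.067 each. The limma adjusted p was 0.998 for each of these genes.
At 10 µM Rpl7l1 differed by 0.30 ± 0.11, Rpsa by 0.17 ± 0.067 and Rpl7 by 0.17 ± 0.095, and Rpl27 of the large subunit by -0.15 ± 0.066, with a limma adjusted p of 1.00 for each. Rpl37 and Rps18 differed by -0.077 and -0.056, less than their SEs.
The effects of amylin, of time (24 against 2 h) and of concentration (20 against 1 µM) were also tested for a difference between the glucose levels. No ribosomal protein gene and no other gene passed limma's test (background 0% in all 3), with 0, 1 and 2 ribosomal protein genes at an unadjusted p under 0.05 against 281, 799 and 338 of all genes.

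To check the bright signals in another way, the brightest and the dimmest probe set of a gene were compared. Of 19 genes with at least 2 probe sets above the filter, the dimmest had the larger SD over arrays in 14, with a median of 0.192 against 0.149 for the brightest. For amylin against untreated both had the same sign in 18 of 19 genes and the dimmest the larger size in 15, with medians of -0.22 and -0.096. At 24 against 2 h the sign was shared in 15 of 19 and the dimmest was larger in 13, with medians of -0.12 and -0.11. Between glucose levels the sign was shared in 13 of 19 and the dimmest was larger in 10.
Single genes disagreed. Rpl27 differed by -0.11 at 24 against 2 h on its brightest probe set (mean 12.16) and by -0.44 on its dimmest (9.05). Rps9 differed by -0.0030 and -0.34 between amylin and untreated. Rps7, a small subunit protein, differed between glucose levels by -0.11 at mean 12.89 and by -0.28 at mean 10.17, and the latter passed limma's test when the dimmest probe set represented each gene (adjusted p = 0.0221, with 7.91% of all genes called).
Probe sets whose name ends in x or s may cross-hybridise with other transcripts (the family has many processed pseudogenes), and 15 of the 43 were of this kind. Without such probe sets 34 ribosomal protein genes were left and none was called in any of the 6 comparisons.

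**Figure D5:**
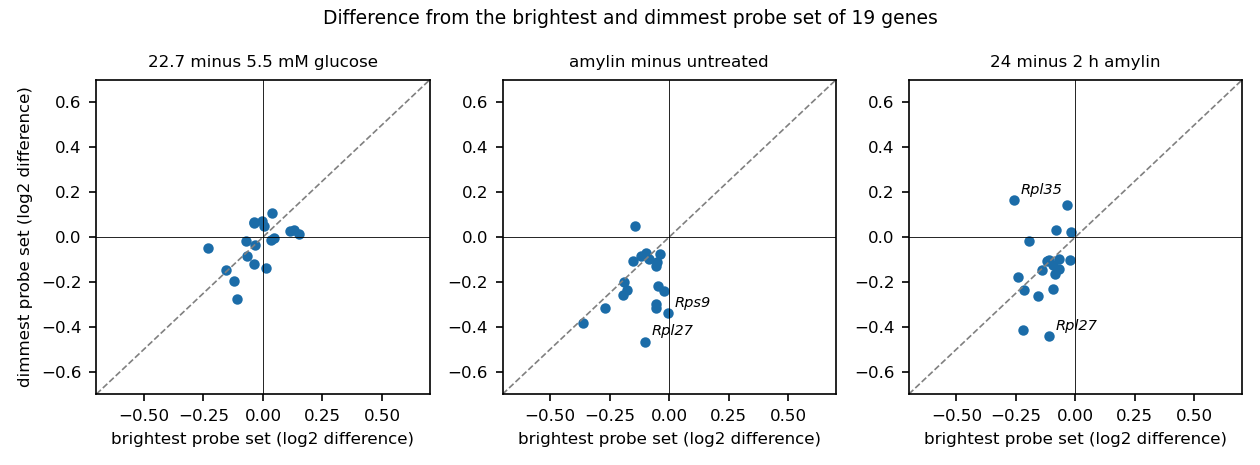
For 19 genes, the log2 difference from the brightest probe set (horizontal) is plotted against that from the dimmest probe set above the filter (vertical), for glucose, amylin and 24 against 2 h. The dashed line marks equality; for amylin 15 of 19 genes have the larger size on the dimmest probe set.

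Other genes of the ribosome pathway, from lists drawn up for this purpose, gave a few glucose calls, next to 5.49% of all genes called. Of 43 tested ribosome biogenesis genes 2 were higher at 22.7 mM, namely Nop10 of the H/ACA particles (0.33 ± 0.058, limma adjusted p = 0.00984) and the pre-60S ATPase Mdn1 (0.26 ± 0.070, 0.0434), and 1 was lower, the nucleolar chaperone Npm1 (-0.48 ± 0.078, 0.00634). Of 22 other TOP and ribosome-associated transcripts 2 were lower, Npm1 again and the snoRNA host gene Gas5 (-0.30 ± 0.081, 0.0434), with a median of -0.099. Of 20 genes of mTORC1 signalling to the ribosome 0 were called. Of 71 mitochondrial ribosomal protein genes, which serve a separate ribosome, 1 was called, Mrpl39 (0.31 ± 0.065, 0.0160).
At 24 against 2 h the mitochondrial genes had a median of -0.087 with 54 of 71 negative, while biogenesis genes had -0.012, the TOP list -0.0058 and the mTORC1 list 0.013. No gene of these 4 lists was called in a comparison of amylin, time or concentration.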

How the data were processed

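The deposited series table holds 22690 probe sets on 20 arrays as log2 values that the authors made with RMA (background correction, normalization and probe summary) in affy 1.12.2 under R 2.4.0, per the submitters' processing notes; a single run over all arrays is not stated. The number of arrays limits the precision. Each of 12393 genes took its probe set of highest mean among those with 1 gene, and 7436 genes above the lowest 40% were tested. Differences were fitted with limma 3.58.1 in R 4.3.3 (lmFit, eBayes with trend=TRUE; glucose plus a factor for the 10 amylin conditions, 9 residual degrees of freedom) and adjusted over 7436 genes by Benjamini-Hochberg at 0.05. The glucose interactions had 8. In the main fit every SE rests on how far a gene's gap between the glucose levels varied from one amylin condition to the next. Variation of a time effect between concentrations, or of a concentration effect between times, does not enter these SEs or their p-values. Tested on simulated data for the glucose contrast over 7436 genes, 90 of 100 log2 changes of 0.5 were recovered. For 24 against 2 h it was 66 of 100. The simulated noise was independent between genes and arrays, and changes smaller than 0.5 were not simulated. The glucose differences of the 43 genes lay between -0.23 and 0.29, so the simulation does not tell how many such changes would be found. Medians over gene lists have no test. Members, lists and comparisons were chosen with earlier results of these data known. The named genes are, per comparison and direction, those called or else the 3 of smallest p, the 5 of largest and smallest SD, the paralogs and a few fixed genes; the examples of disagreeing probe sets, Rps20 and Rpl27 were picked after their values were seen. The start windows are RefSeq's (GRCm38.p6).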

Additional observations from a re-analysis of the deposited data

Results flagged for a closer look

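For 62 groups of 10 arrays (the named genes and the array medians at each glucose level) the gap between the most extreme array and its neighbour was divided by the group's range and set against Dixon's critical value of 0.466. In 6 groups it was exceeded. For 10 independent values from a single normal distribution it would be exceeded in about 1 of 20 groups. The groups here mix amylin conditions and share the same arrays, so that rate does not apply to them. On the array at 5.5 mM glucose with 10 µM amylin for 24 h, Rpl11 was lowest (12.22, gap over range 0.474), Rps25 was lowest (7.21, 0.522) and Rps27 was highest (8.02, 0.631). On the array at 22.7 mM with 1 µM for 12 h, Rplp0 was lowest (11.98, 0.543) and Rps9 was lowest (10.85, 0.494). Both are the arrays without a scanner description. Rpl41 was lowest on the array at 5.5 mM with 20 µM for 12 h (13.26, 0.574), where the other 9 arrays of that glucose level lay from 13.59 to 13.84.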

How the results depend on the processing

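The number of ribosomal protein genes called for glucose was 0 and became 1 with the lowest 60% of genes left out, with the table quantile normalized again, with the mean of all probe sets, with an additive model and with wash protocol as a block, 2 with the dimmest probe set, 4 without the 2 arrays lacking a scanner description and 7 with scan day as a block, which left 17 arrays. It ranged from 0 to 5 when each array was left out. The number was 5 without either array at 10 µM for 24 h (22.7 or 5.5 mM) and 1 without either at 1 µM for 2 h. Leaving out either array of a pair takes the same pair from the glucose comparison, so these omissions are not separate checks. For 12 against 2 h the number called was 1 (Rpl35) with the additive model and 0 to 1 leaving out an array. It was 1 without either array at 10 µM for 24 h. It stayed 0 in the other 4 comparisons under 14 alternatives and 20 omissions, and for the interactions without the 2 arrays and under the omissions; without an untreated array the amylin interaction could not be fitted. The median differences kept their sign except at 20 against 1 µM, where quantile normalization gave -0.011. For glucose they lay between -0.036 and -0.0086, for 10 against 1 µM between 0.012 and 0.062, and for 20 against 1 µM otherwise between 0.010 and 0.049. The wash block, the exclusion of probe sets ending in x or s and the interaction alternatives were chosen after seeing the data.

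Of 35 named differences, none called, 30 of 1181 values changed sign; the cause was not tested. For amylin, Rpl4 became -0.044 (scan day) and -0.029 (actin signal), and Rpl39 -0.0014 (arrays centred) and -0.0063 (18 arrays). Leaving out an array, Rps6 ranged from -0.12 to 0.19 and Rpl39 from -0.052 to 0.11. At 24 against 2 h, Rps27 became -0.0027 (scan day) and -0.011 (wash), Rpl39 -0.026 (centred) and -0.044 (18 arrays), and -0.051 to 0.055 leaving out an array, and Rpl35 0.17 (dimmest probe set). At 12 against 2 h, Rpl35 became 0.086 (dimmest) and Rpl12 ranged from -0.025 to 0.17. At 20 against 1 µM the dimmest probe set gave -0.14 for Rps9, -0.068 for Rpl7l1 and 0.020 for Rps18, which was 0.062 without suffix x or s; Rpl41 was 0.045 with the mean of probe sets and -0.16 to 0.029 leaving out an array. At 10 against 1 µM the dimmest gave -0.0026 for Rpl7l1, 0.062 for Rpl27 and 0.036 for Rps18, which was 0.015 on 18 arrays and 0.025 with the wash block. No paired analysis was possible because no condition has a second array, apart from the matching of conditions between the glucose levels that the fit already holds.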
